A study of Mus musculus with 7 samples.

Results

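The nuclear-encoded subunits of the mitochondrial respiratory chain and ATP synthase were followed through 3 single-cell tables of mouse epidermis after bone marrow transplantation (BMT). Members were taken by symbol, as every gene of the donor or keratinocyte table named Ndufa, Ndufb, Ndufc, Ndufs or Ndufv with a number, Uqcr, Atp5, Sdha to Sdhd, or Cox4 to Cox8. This gave 92 of 26383 listed symbols, of which 80 of 15155 were in the donor table, 92 of 26383 in the keratinocyte table and 81 of 23737 in the host table. Complex I had 37 members, complex II 4, complex III 9, complex IV 20 and complex V 22. Ndufa4 and Ndufa4l2, which were named after complex I, were counted with complex IV, where the Ndufa4 protein is now placed. The 12 members with no donor value here include Cox4i1 and Ndufa13. Of the 92 symbols 6 carry the pseudogene mark -ps, among them Ndufb1-ps, an older name of a gene that RefSeq lists as protein coding (Ndufb1).

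The respiratory chain passes electrons from NADH at complex I and from succinate at complex II through complex III to oxygen at complex IV, and complex V uses the proton gradient so built to make ATP. Most subunits are encoded in the nucleus and imported, and a small set of core subunits is encoded by mitochondrial DNA. Some complex IV subunits exist as tissue isoforms, such as Cox7a1 of heart and skeletal muscle and Cox6b2 of testis.

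In the study, bone marrow of female CD45.1 C57BL/6 donors was given to male CD45.2 C57BL/6 hosts after lethal irradiation, and epidermis was taken 3 weeks later. The question was how donor monocytes that enter the epidermis become Langerhans cells, the antigen-presenting cells of that layer (monocyte-derived Langerhans cells, mLC). Donor CD11b+MHCII+ cells were sequenced as 3 libraries labelled BMT and 1 labelled BMT plus T cells (BMT + T cells). CD45neg keratinocytes of the male hosts came as 1 library under each label. Host CD11b+MHCII+ cells came as 1 library, known here by that title. The paper describes host Langerhans cells isolated alongside from skin with graft-versus-host disease at 3 weeks. All libraries share irradiation, transplantation and the mismatch of sex. The labels give no T cells to the BMT libraries, while the design text names CD8 Matahari and CD4 T cells without this distinction, so comparisons below are between labels. No label gives an animal, and cells of several mice were sorted together, so replicates are libraries and the spread between them may be partly technical.

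The donor libraries BMT 1, 2 and 3 held 2572, 8382 and 226 cells and the BMT + T cells library 719, at medians of 7021.5 to 13387 UMIs (unique molecular identifiers, that is, counted transcripts) per cell. The keratinocyte libraries held 2836 and 2590 cells at medians of 8895.5 and 8834 UMIs, and the host library 781 cells at 4376. Any 2 libraries shared 0 to 7 cell barcodes. The study's clusters were kept with their names. Resident mLC held Cd207, which encodes langerin, at 1.31, 5.50, 10.4 and 9.50 UMIs per 10000 UMIs of the cell (CP10K) in BMT 1, 2, 3 and BMT + T cells, where Mono, the monocytes, held at most 0.068. Mrc1 was not highest in the cluster named Mrc1+ macrophages in every library: in BMT + T cells it was at 3.33 CP10K there and at 7.95 in Mono. Summed keratinocyte markers were at 0.353 to 1.14 CP10K in resident mLC and 2.02 to 3.11 in Mono, and summed T cell markers were at 0 to 0.125 over all donor clusters. The part of free or neighbouring RNA in the member values was not tested.

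Summed over the 80 donor members and averaged over cells, subunit transcripts made up about the same share of RNA in monocytes and in resident mLC. The sum in Mono was 260, 258, 249 and 254 CP10K in BMT 1, 2, 3 and BMT + T cells. In resident mLC it was 220, 266, 281 and 251 CP10K. The resident mLC values lie on both sides of those of Mono, at 254 ± 26.1 (SD, n = 4) against 255 ± 4.82 (SD, n = 4), which is 2.54% and 2.55% of UMIs. MC, the study's name for a cluster of monocyte-derived cells, had 270.5 ± 8.64 CP10K (SD, n = 3) and ISG monocytes, which express interferon-stimulated genes, 259 ± 2.92 (SD, n = 3). Lower means were found in Hmox1+ monocytes (229 ± 19.5, n = 3), migrating mLC (220 ± 22.1, n = 2) and Mrc1+ macrophages (211 ± 32.9, n = 4), with SD over libraries of at least 20 cells. Cycling mLC had 244 ± 38.4 CP10K (SD, n = 3), with libraries from 218 to 288 that overlap with those of both resident mLC and Mrc1+ macrophages. S100a+ monocytes reached 20 cells in BMT 2 alone, at 186 CP10K.

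The Mrc1+ macrophages of BMT 3 stood apart: their sum was 162 CP10K on 45 cells with a median of 2214 UMIs, where the other 3 libraries had 225 to 230. When the UMIs of all cells of a cluster were pooled, so that deep cells weighed more, the same sum was 269, 255, 243 and 264 CP10K in BMT 1, 2, 3 and BMT + T cells. Pooled resident mLC were at 272, 279, 308 and 288 CP10K and pooled Mono at 270, 266, 272 and 278. On pooled UMIs resident mLC were thus above Mono in every library, which was not so for means over cells. The distance of resident mLC from the Mrc1+ macrophages and from Mono therefore depends on how cells are weighted. Single cells varied more than libraries: in BMT 2 the middle 50% of resident mLC lay between 228 and 312 CP10K.

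By complex, resident mLC and Mono again had overlapping libraries. Complex I, the NADH dehydrogenase, summed to 88.9 ± 9.06 CP10K in resident mLC, 86.0 ± 1.68 in Mono and 70.2 ± 10.8 in Mrc1+ macrophages (SD, n = 4 each). Complex II, succinate dehydrogenase, was at 6.46 ± 0.729 in resident mLC, 7.08 ± 0.654 in Mono and 6.70 ± 0.895 in Mrc1+ macrophages, with overlapping libraries in all 3 clusters. The lowest complex II mean was that of migrating mLC, 4.69 ± 0.185 CP10K (SD, n = 2), and both libraries lay below every library of resident mLC and Mono. Complex III, cytochrome c reductase, was at 26.2, 27.4 and 22.7 CP10K in resident mLC, Mono and Mrc1+ macrophages. Complex IV, cytochrome c oxidase, was at 57.9, 59.3 and 48.2 CP10K, and complex V, ATP synthase, at 75, 75.5 and 63.4. MC had the highest means of complexes I, III, IV and V among clusters with 2 or more libraries, such as 63.2 ± 3.97 CP10K for complex IV and 80.6 ± 1.42 for complex V (SD, n = 3).

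**Figure D1:**
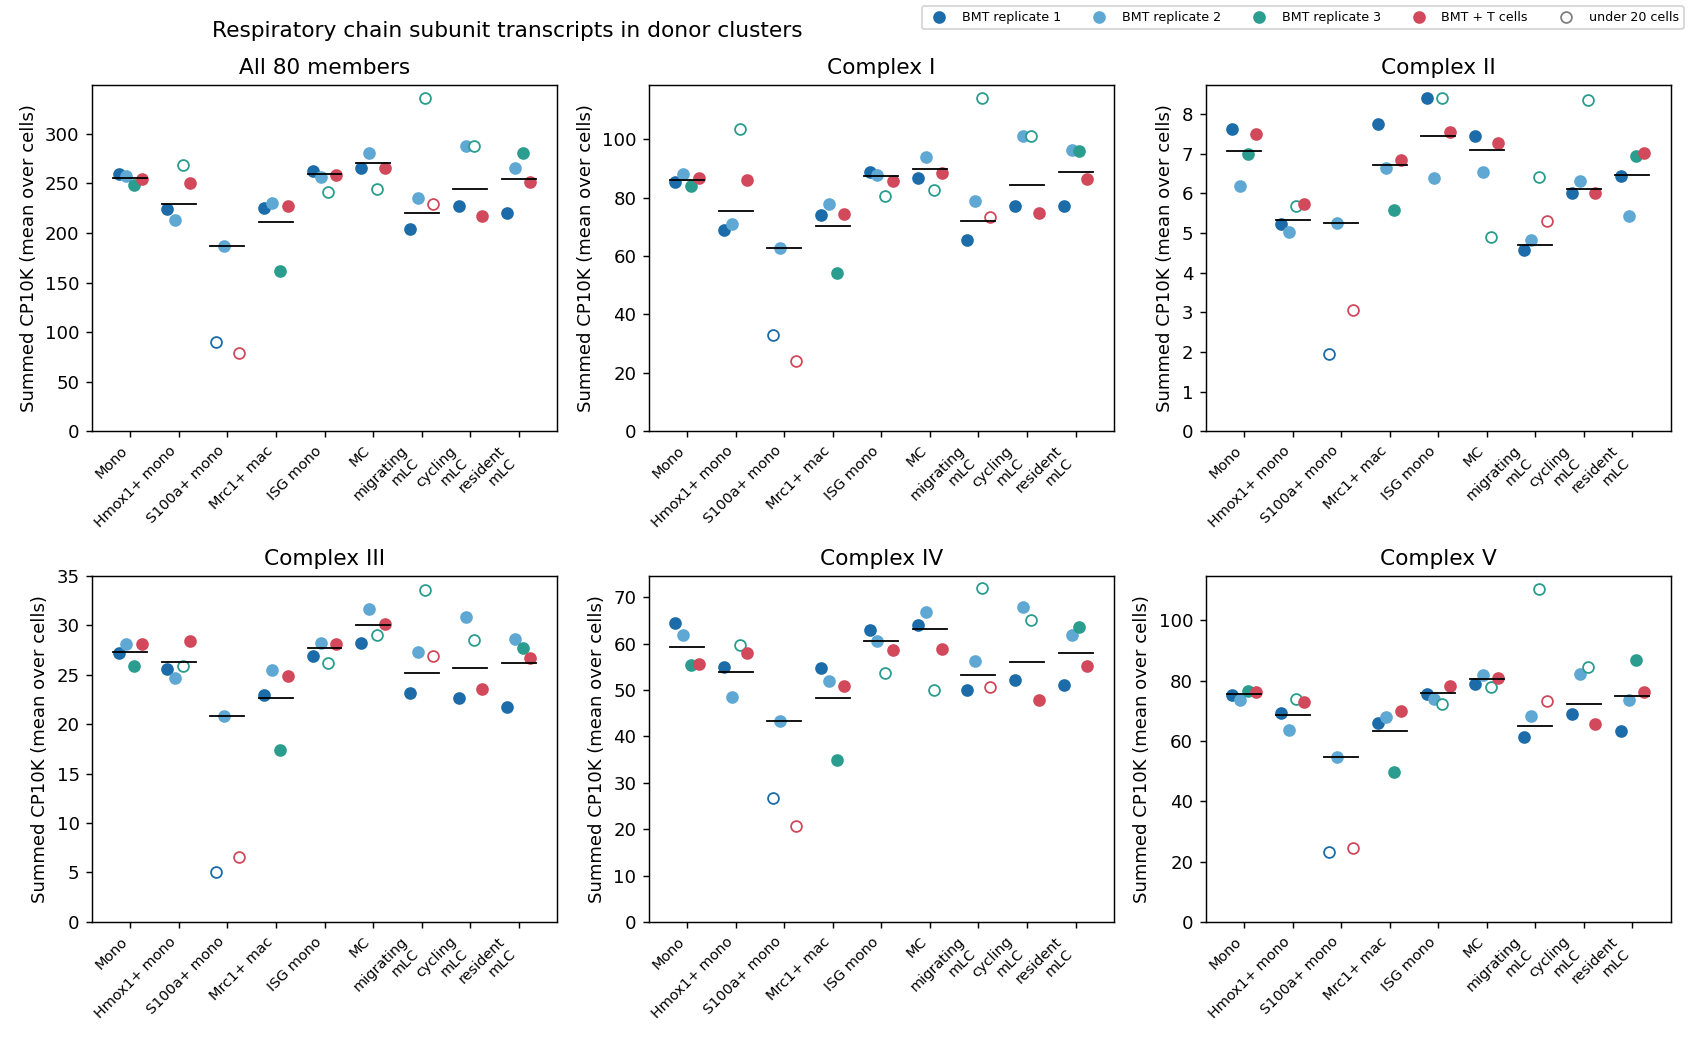
Summed CP10K of the donor members (vertical axis, mean over cells) in each donor cluster (horizontal axis), for all 80 members and for complexes I to V; each point is 1 library, open points are clusters of under 20 cells, and the line is the mean over the filled points. Resident mLC and Mono overlap in every panel but spread unequally, and the point of BMT 3 lies lowest among the Mrc1+ macrophages.

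Single members were tested between clusters with limma on log2(CP10K + 0.1), with all clusters in the fit, the library as a block and p values adjusted over 7267 genes by the Benjamini-Hochberg method. A member was called at an adjusted p under 0.05. Clusters were defined on the same cells, so a call describes the annotation, and 5 of the 6 comparisons share the resident mLC. Of the 80 donor members, 76 passed the filter of a mean of 0.1 CP10K; Atp5o.1, Cox4i2, Ndufa4l2 and Ndufs1 did not. In all, 35 of the 76 were called in at least 1 comparison and 41 in none. The largest log2 difference among called members was 1.28, and 0 members passed the study's own limit of 2 on this scale.

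Against Mono, resident mLC had 6 members called higher and 4 called lower, which is 7.89% and 5.26% of the 76. Of all genes tested, 18.4% were called higher and 14.3% lower. The median difference of the members was -0.03 on the log2 scale beside 0.14 for all genes. The 6 higher members were Ndufa6 and Ndufa8 of complex I, Cox7a2l, Cox7a1 and Cox6b2 of complex IV, and Atp5g1 of complex V. The 4 lower members were Ndufs4, Ndufs8 and Ndufb7 of complex I and Sdhb of complex II.

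Ndufa6, an accessory subunit of complex I, was the member called in all 6 comparisons. It was at 6.35, 8.10, 8.94 and 7.69 CP10K in resident mLC of BMT 1, 2, 3 and BMT + T cells. In Mono it was at 3.35, 4.38, 4.89 and 5.53 CP10K, and in Mrc1+ macrophages at 2.45, 3.37, 3.00 and 3.76. Every resident mLC library was above every library of both other clusters. The log2 difference was 0.78 ± 0.12 (SE) against Mono (adjusted p = 2.1e-05) and 1.28 ± 0.12 against Mrc1+ macrophages (adjusted p = 1.2e-08), higher in 4 of 4 libraries each. MC held Ndufa6 at 3.58, 4.57 and 4.04 CP10K in BMT 1, BMT 2 and BMT + T cells, the libraries with 20 MC cells, and the difference was 0.88 ± 0.14 (adjusted p = 3.9e-05), higher in 3 of 3. Cycling mLC, which are mLC with proliferation genes, were at 3.07, 4.98 and 4.90 CP10K in these libraries and migrating mLC at 3.37 and 4.61 in BMT 1 and 2. Both lay below resident mLC, at -0.82 ± 0.14 (adjusted p = 1.3e-04) and -0.81 ± 0.16 (adjusted p = 4.9e-04). Without BMT 1 or BMT 2 the migrating mLC were left with 1 library, and the call was lost.

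Cox7a2l, a protein related to Cox7a that joins complexes III and IV and whose C57BL/6 form is shortened, was called in 5 of the 6 comparisons. It was at 5.53, 5.27, 3.84 and 3.98 CP10K in resident mLC of BMT 1, 2, 3 and BMT + T cells and at 2.40, 2.62, 2.41 and 2.92 in Mono. The resident mLC libraries do not overlap with those of Mono, and BMT 1 and 2 hold the higher pair of values. The log2 difference was 0.81 ± 0.16 (adjusted p = 2.8e-04), and 0.80 ± 0.16 (adjusted p = 3.3e-04) against Mrc1+ macrophages. In Hmox1+ monocytes, which express heme oxygenase, it was at 1.08, 2.19 and 1.63 CP10K in BMT 1, BMT 2 and BMT + T cells, below Mono by 0.77 ± 0.18 on the log2 scale (adjusted p = 0.0036). Its differences from MC (0.55, adjusted p = 0.033) and of cycling mLC from resident mLC (-0.69, adjusted p = 0.011) were smaller. These calls were kept in 7 and 10 of 12 other settings.

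Ndufa8, an accessory subunit on the intermembrane space side of complex I, was called in 4 comparisons. Resident mLC held it at 2.83, 2.47, 2.85 and 3.05 CP10K and Mono at 2.03, 1.58, 2.13 and 2.15, again without overlap. The log2 difference was 0.49 ± 0.16 (adjusted p = 0.022), and the call was kept in 9 of 12 other settings. Migrating mLC were at 1.58 and 1.38 CP10K, 0.77 below resident mLC on the log2 scale (adjusted p = 0.0089).

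**Figure D2:**
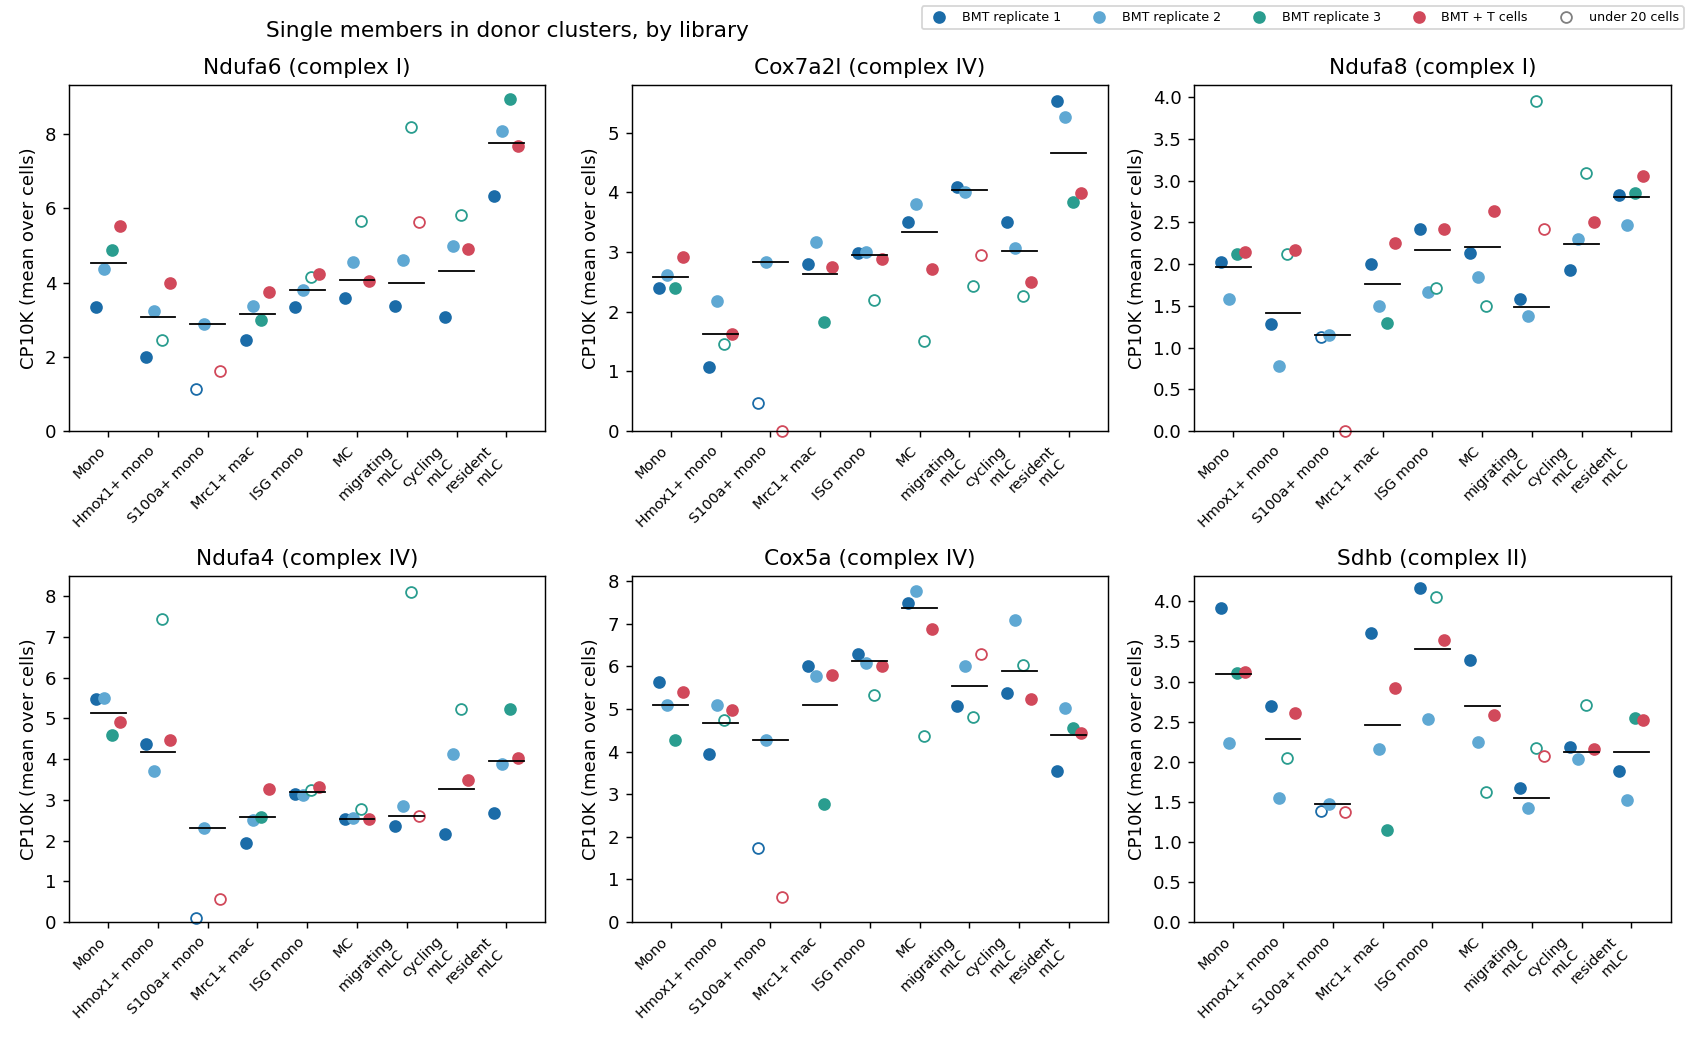
CP10K of 6 members (vertical axis, mean over cells) in each donor cluster (horizontal axis); each point is 1 library, open points are clusters of under 20 cells, and the line is the mean over the filled points. Ndufa6 in resident mLC lies between 6.35 and 8.94 CP10K, above the filled points of every other cluster, while the highest filled points of Sdhb and Ndufa4 are those of monocyte clusters.

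The isoforms Cox7a1 and Cox6b2 were called as well, at low levels. Cox7a1 was at 0.0759, 0.208, 0.296 and 0.264 CP10K in resident mLC and at 0.0343, 0.044, 0.0888 and 0.0712 in Mono, a log2 difference of 0.91 ± 0.21 (adjusted p = 0.0014), and the value of BMT 1 lies within the Mono range. Cox6b2 was at 0.243, 0.211, 0.333 and 0.297 CP10K in resident mLC and at 0.0123, 0.0549, 0.111 and 0.0481 in Mrc1+ macrophages, a log2 difference of 1.27 ± 0.25 (adjusted p = 2.7e-04). These values are near the pseudocount of 0.1, so the log2 differences understate the ratio of the levels. Of the common counterparts, neither Cox7a2 nor Cox6b1 was called in any comparison.

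Members that were lower in resident mLC than in Mono had small differences. Sdhb, the iron-sulfur subunit of complex II, was at 1.88, 1.52, 2.55 and 2.52 CP10K in resident mLC and at 3.92, 2.23, 3.10 and 3.12 in Mono. It was lower within each of the 4 libraries, by 0.53 ± 0.20 on the log2 scale (adjusted p = 0.048), although the values of different libraries overlap. Ndufs8, an iron-sulfur core subunit of complex I, was at -0.46 ± 0.17 (adjusted p = 0.040), Ndufs4 at -0.40 ± 0.16 (adjusted p = 0.048) and Ndufb7 at -0.36 ± 0.11 (adjusted p = 0.019). The calls of Sdhb, Ndufs8 and Ndufs4 were each lost in 5 of 12 other settings.

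**Figure D3:**
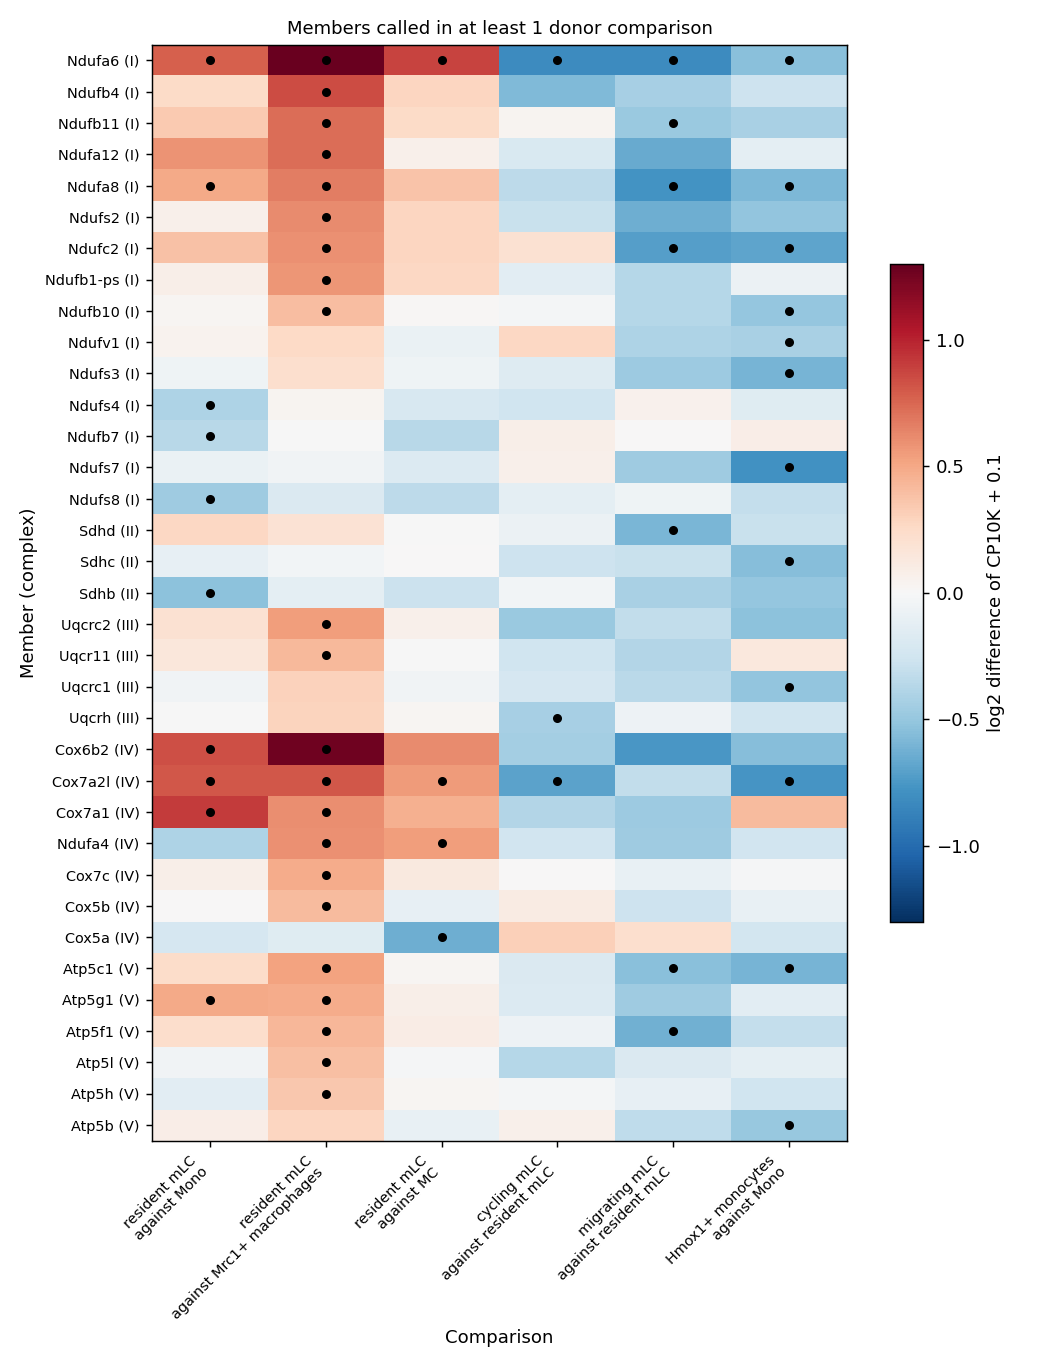
Log2 difference of CP10K + 0.1 (colour scale) for the 35 members called in at least 1 donor comparison (rows, with the complex in brackets) in the 6 comparisons (columns); dots mark adjusted p under 0.05. The dots in the column of Mrc1+ macrophages are all on members higher in resident mLC, and those of the migrating mLC and Hmox1+ monocyte columns are all on lower members.

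Against Mrc1+ macrophages, resident mLC had 22 of 76 members called higher (28.9%) and 0 lower, where 17.9% of all genes were called higher and 13.6% lower. The median difference of the members was 0.26 beside 0.12 for all genes, and 62 of 76 were above 0. By library the median was -0.06, 0.22, 0.82 and 0.16 in BMT 1, 2, 3 and BMT + T cells, so BMT 3 had by far the largest difference. Without the 45 Mrc1+ macrophages of BMT 3, a setting chosen after seeing the data, 9 members were called higher and 3 lower, beside 14.5% and 12% of all genes. Without all of BMT 3 it was 7 higher and 3 lower, beside 14.6% and 11.5%, and on pooled UMIs 21 higher and 2 lower, beside 23.8% and 15.1%. Ndufa6, Cox6b2, Cox7a2l and Ndufb11 kept their calls in all 13 other settings. Ndufb11, an accessory subunit of complex I whose gene overlaps Rbm10, was at 3.24, 3.34, 3.77 and 3.68 CP10K in resident mLC and at 2.31, 1.76, 1.91 and 2.37 in Mrc1+ macrophages (0.73 ± 0.13 on the log2 scale, adjusted p = 1.4e-04). Ndufb4, also called, was at 0.101 to 0.362 CP10K over the clusters of BMT 1 and 2 with at least 20 cells and at 0.310 to 1.56 in those of BMT 3, and its call was lost in 5 of 13 settings.

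Against MC, resident mLC had 3 members called higher and 1 lower, where 8.52% of all genes were called higher and 7.17% lower. The higher members were Ndufa6, Cox7a2l and Ndufa4. Ndufa4 was at 2.68, 3.88 and 4.03 CP10K in resident mLC and at 2.53, 2.56 and 2.53 in MC of BMT 1, BMT 2 and BMT + T cells, a log2 difference of 0.55 ± 0.18 (adjusted p = 0.042). The call of Ndufa4 was kept in 6 of 12 other settings, and its difference within BMT 1 was 0.08. In Mono, Ndufa4 was higher still, at 5.49, 5.50, 4.59 and 4.92 CP10K in the 4 libraries. That difference from resident mLC was not called. The lower member was Cox5a, a nuclear-encoded subunit of complex IV, at 7.5, 7.77 and 6.88 CP10K in MC and 3.54, 5.03 and 4.43 in resident mLC of the same libraries (-0.64 ± 0.17, adjusted p = 0.010).

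Within the mLC, cycling cells had 3 members called lower than resident cells and 0 higher, beside 3.52% lower and 7.2% higher among all genes. These were Ndufa6, Cox7a2l and Uqcrh, the hinge protein of complex III, at -0.43 ± 0.13 (adjusted p = 0.027). The call of Uqcrh was kept in 6 of 12 other settings. Migrating mLC, compared in BMT 1 and 2 only, had 7 members lower (9.21% of 76) and 0 higher, beside 13.3% and 6.81% of all genes, with medians of -0.24 for the members and -0.26 for all genes. The 7 were Ndufa6, Ndufa8, Ndufc2 and Ndufb11 of complex I, Sdhd, a membrane anchor of complex II, and Atp5c1 and Atp5f1 of complex V. The fit also drew on the clusters of the other libraries. Within BMT 1 and BMT 2 the median of the members was -0.12 and -0.16, nearer to 0 than in the fit. Sdhd was at 1.32 and 1.17 CP10K in migrating mLC and at 2.12 and 1.53 in resident mLC of BMT 1 and 2 (-0.60 ± 0.16, adjusted p = 0.011). Its difference within these libraries was -0.64 and -0.36.

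Hmox1+ monocytes had 12 of 76 members called lower than Mono (15.8%) and 0 higher, where 10.6% of all genes were lower and 4.91% higher, and the medians were -0.24 for the members and -0.15 for all genes. The list holds 7 complex I members, among them the core subunits Ndufs7, Ndufs3 and Ndufv1, with Sdhc, Uqcrc1, Cox7a2l, Atp5b and Atp5c1. Ndufc2, an accessory subunit of complex I, was at 1.72, 2.49 and 3.28 CP10K in Hmox1+ monocytes and at 3.88, 3.58 and 3.81 in Mono of BMT 1, BMT 2 and BMT + T cells, without overlap (-0.69 ± 0.16, adjusted p = 0.0056). Ndufs7 was at 0.469, 0.972 and 1.77 CP10K against 1.55, 1.59 and 1.79, so its difference rests on BMT 1 and 2 (-0.79 ± 0.22, adjusted p = 0.014). When only these 2 clusters entered the fit, 0 members were called.

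Short stretches of promoter are shown for 5 of the called members whose promoter holds the motif of NRF1. This transcription factor is known for binding near genes of the respiratory chain. RefSeq promoters (GRCm38.p6, 250 bases before to 50 after the start) were found for 67 of the 92 symbols and searched on both strands for GCGCNTGCGC. It was found in 17 of the 67 (25.4%), and in 5.19% of all 27025 promoters of the table. Capitals mark the motif or its reverse complement, and each line gives the gene's strand, 5′ to 3′.
Ndufa6, chr15:82354249-82354278, minus strand: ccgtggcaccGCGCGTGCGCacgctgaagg
Ndufa8, chr2:36049349-36049378, minus strand: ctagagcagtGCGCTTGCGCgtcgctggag
Atp5c1, chr2:10080430-10080459, minus strand: ctgagctcccGCGCACGCGCactgagtccc
Sdhd, chr9:50603909-50603938, minus strand: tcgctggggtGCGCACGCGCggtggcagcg
Uqcrc1, chr9:108936643-108936672, plus strand: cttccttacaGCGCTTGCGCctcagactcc

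The motif lies 23 bases after the start of Ndufa6 and 5 after that of Uqcrc1, and 30, 17 and 79 bases before those of Ndufa8, Atp5c1 and Sdhd. Uqcrc1 has another match 30 bases after its start. Ndufb4 and Atp5h, also called, hold matches that are not shown. The ETS core CCGGAAG was also found in 17 members (25.4%, against 9.93% of all promoters) and the YY1 motif AAGATGGCG in 7 (10.4% against 1.64%). A match is a match of letters, and no binding was measured.

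Genes around the chain were counted by list in the same fits. Of 32 tested genes listed with the assembly factors, which help build the complexes, 8 were called higher and 1 lower in resident mLC than in Mono. Among all genes 18.4% were higher and 14.3% lower. Of 16 enzymes of the tricarboxylic acid (TCA) cycle 4 were higher and 0 lower, against the same background. Fumarase, Fh1, was at 1.39, 0.915, 1.36 and 1.51 CP10K in resident mLC and at 0.425, 0.424, 0.617 and 1.08 in Mono (0.98 ± 0.21 on the log2 scale, adjusted p = 7.9e-04). Mitochondrial isocitrate dehydrogenase, Idh2, was at 0.93 ± 0.22 (adjusted p = 0.0019). The largest difference among the called genes of the assembly list was that of Ndufaf2, at 0.93 ± 0.20 (adjusted p = 8.8e-04). Atpif1, which was counted in that list, is an inhibitor of ATP hydrolysis by complex V. It was at 7.23, 8.47, 8.63 and 7.37 CP10K in resident mLC against 3.70, 3.74, 4.90 and 5.45 in Mono (0.84 ± 0.14, adjusted p = 6.3e-05).

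Of 9 uncoupling and antioxidant genes 0 were higher and 4 lower in resident mLC than in Mono, beside 18.4% and 14.3% of all genes. The peroxidase Prdx5 was at 2.83, 3.34, 3.01 and 3.16 CP10K in resident mLC and at 27.0, 16.7, 10.4 and 7.89 in Mono (-2.14 ± 0.21, adjusted p = 1.3e-08). Gpx1, glutathione peroxidase, was at -1.59 ± 0.20 (adjusted p = 8e-07) and Sod2, mitochondrial superoxide dismutase, at -1.26 ± 0.35 (adjusted p = 0.0077). In Hmox1+ monocytes 6 of 16 TCA enzymes were lower than in Mono and 0 higher, beside 10.6% and 4.91% of all genes, with Fh1 at -1.59 (adjusted p = 4.2e-05). In migrating mLC, Idh2 was at -1.86 against resident mLC (adjusted p = 2.8e-05). The remaining lists, electron carriers (12 tested) and regulators of mitochondrial biogenesis (9 tested), had at most 2 genes called in either direction in any comparison. The donor table lists no mitochondrially encoded gene.

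Between the donor labels, 0 of 76 members were called (BMT + T cells against 3 BMT libraries, limma on the mean of Mono, resident mLC and Mrc1+ macrophages, with the lone library assumed to vary like the others). Of all 7345 genes 0% were called, and 352 had an unadjusted p under 0.05, among them 2 members. Ndufa12, an accessory subunit of complex I, was at 1.76 CP10K in resident mLC of BMT + T cells and at 0.941, 0.950 and 1.97 in BMT 1, 2 and 3 (0.84 ± 0.29 over the 3 clusters, adjusted p = 0.95). Cox7c was at 0.648 CP10K in resident mLC of BMT + T cells and at 0.868, 1.77 and 1.18 in the BMT libraries (-0.82 ± 0.35, adjusted p = 0.95). The BMT + T cells library was above all 3 BMT libraries for 25 members, beside 31% of all genes, and below all 3 for 8, beside 20.3%. The median of the members was 0.11 beside 0.05 for all genes.

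These values changed without BMT 3, when 4 members were called higher and 1 lower, beside 3.92% and 3.38% of 7253 genes. Atp5l was at 1.20 ± 0.30 (adjusted p = 0.0023), Ndufa12 at 0.97 ± 0.28 (adjusted p = 0.012), Ndufb4 at 0.85 ± 0.26 (adjusted p = 0.019), Ndufs3 at 0.83 ± 0.27 (adjusted p = 0.039) and Cox7c at -0.92 ± 0.27 (adjusted p = 0.017). The library names of BMT 1 and 2 share a form, and that of BMT 3 shares another with BMT + T cells and the keratinocytes. In the paper, keratinocytes and CD11b+MHCII+ cells were taken from the same epidermal samples and joined to an existing CD11b+MHCII+ dataset. It does not say which libraries these were. If the form of the names marks the experiment, label and experiment cannot be told apart in the fit without BMT 3. Atp5l, Cox7c and Ndufb4 have near-identical copies in the genome, and how their reads were assigned was not tested.

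In keratinocytes the 92 members summed to more of the RNA in the clusters KC_Four and KC_Five than in basal cells. The sums under the labels BMT and BMT + T cells were 353 and 335 CP10K in basal, 332 and 322 in differentiated and 359 and 339 in hair follicle keratinocytes. KC_Four had 377 and 368 CP10K and KC_Five 403 and 393. The 13 mitochondrially encoded genes went the other way, at 1.68% and 1.62% of UMIs in basal cells. They were at 1.38% and 1.06% in KC_Four and at 1.48% and 1.07% in KC_Five. Ribosomal protein transcripts were at 17.4% and 18.3% in basal cells, 15.3% and 16.6% in KC_Four and 13.9% and 15.8% in KC_Five. KC_Four and KC_Five were high in the proliferation gene Mki67, at 4.99 to 6.72 CP10K beside 0.498 and 0.441 in basal cells. The other proliferation gene listed, Top2a, was at 7.24 and 7.81 CP10K in KC_Four and at 0.6465 and 0.854 in KC_Five. In KC_Five it was thus below hair follicle cells, at 0.962 and 1.09, and above basal cells, at 0.331 and 0.232. The step from basal to KC_Five was seen in complex I (117 to 133 CP10K under BMT) and complex IV (83.3 to 96.9). Each label is 1 library, so there is no test, and differences between clusters are given for both libraries.

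A member was counted as past the limit when its log2 difference from basal cells exceeded 0.5 in both libraries. In differentiated cells and in KC_Four and KC_Five this held for 0 of 78 members in either direction. Among all 7650 genes it held for 5.52%, 8.21% and 6.34% higher and for 9.49%, 7.28% and 5.67% lower in these 3 clusters. The median of the members was -0.08 in differentiated cells, 0.10 in KC_Four and 0.22 in KC_Five, beside -0.08, -0.10 and -0.04 for all genes, and 62 of 78 members were above 0 in KC_Five in both libraries.

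Hair follicle keratinocytes had 1 member higher and 2 lower, beside 7.96% and 4.73% of all genes. Ndufa11, a complex I accessory subunit, was at 5.86 and 5.72 CP10K there and at 3.95 and 3.54 in basal cells. Ndufa4l2, a hypoxia-responsive relative of Ndufa4 whose gene overlaps Shmt2, was at 0.241 and 0.477 CP10K in hair follicle cells and at 1.16 and 1.35 in basal cells, log2 differences of -1.88 and -1.33. Uqcrc1, a core protein of complex III, was at 4.77 and 4.37 against 7.20 and 6.87 CP10K (-0.58 and -0.64). In differentiated cells Uqcrc1 was nearly as far below basal cells, at -0.52 and -0.48, where the second value misses the limit. Ndufa11 was likewise above basal cells in KC_Four (0.38 and 0.48) and KC_Five (0.35 and 0.57). Markers of other cell types were higher in the hair follicle cluster than in basal cells: the fibroblast genes Dcn at 5.38 and 3.34 CP10K against 0.0261 and 0.0156 and Col1a2 at 0.601 and 1.03 against 0 and 0.00118, and the melanocyte genes Pmel at 0.744 and 1.31 against 0.0261 and 0.0157 and Dct at 0.362 and 1.36 against 0.0106 and 0.0162. Their part in the hair follicle values was not tested. Cox4i1, which has no donor value here, was at 8.56 to 11.2 CP10K over all keratinocyte clusters.

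**Figure D4:**
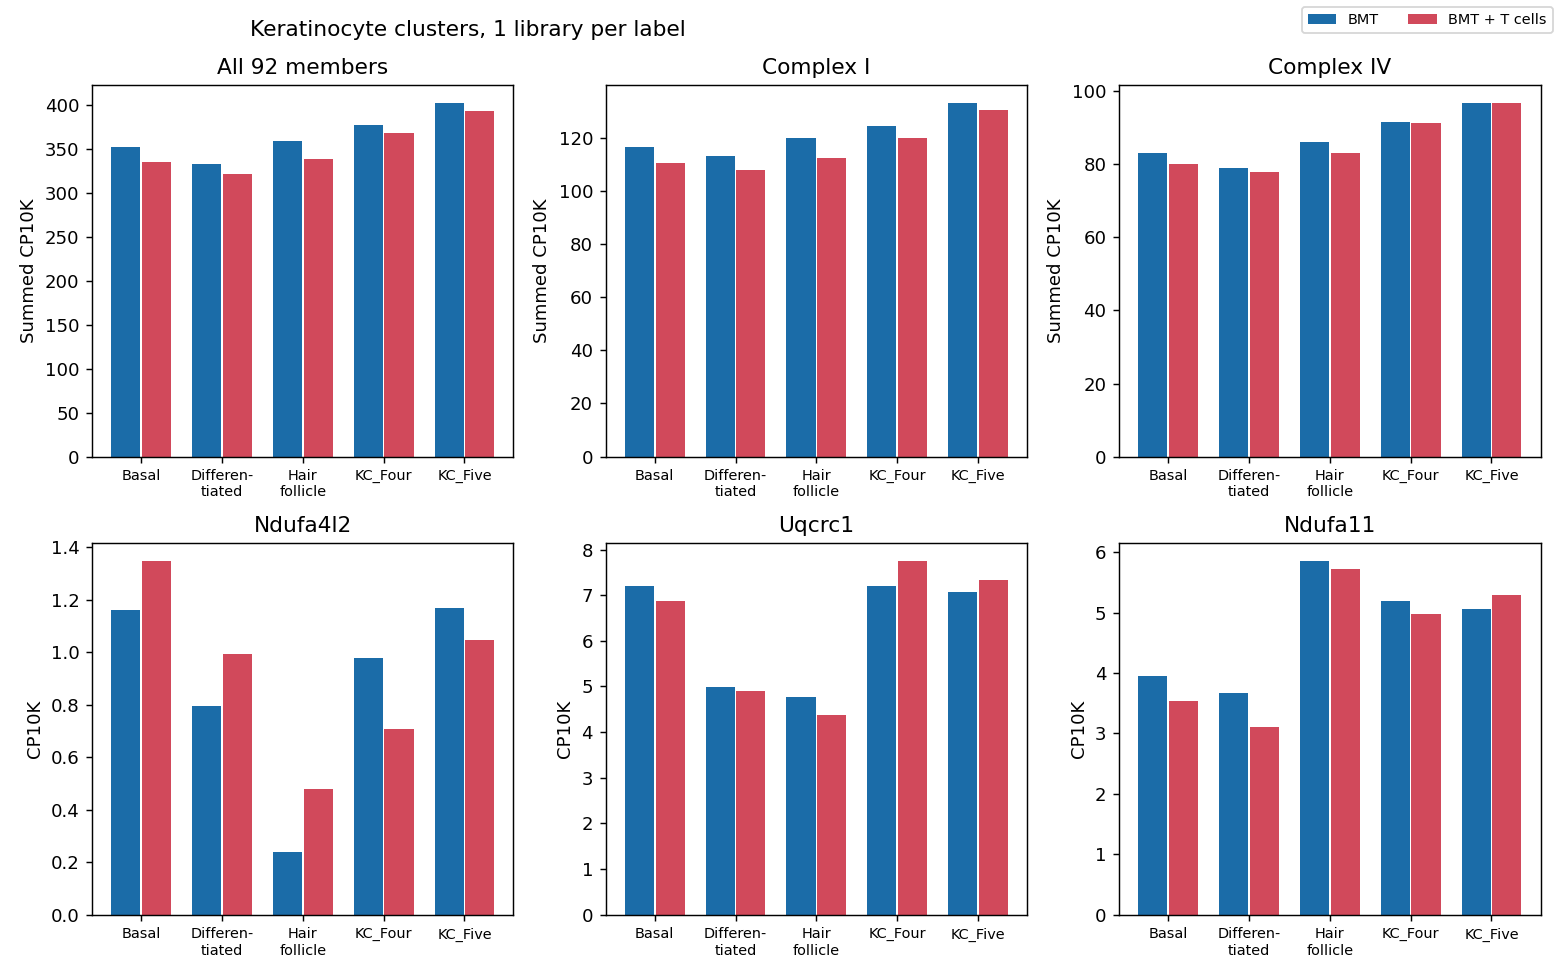
Summed CP10K of the 92 members, of complex I and of complex IV, and CP10K of Ndufa4l2, Uqcrc1 and Ndufa11 (vertical axes, means over cells), in the 5 keratinocyte clusters (horizontal axes), with 1 library per label and no error bars. The sums are highest in KC_Five, at 403 and 393 CP10K, while Ndufa4l2 is lowest in hair follicle cells and Uqcrc1 is low in hair follicle and in differentiated cells.

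Between the keratinocyte labels 0 of 78 members passed a mean log2 difference of 0.5 over the 5 clusters, beside 0.588% of all genes higher and 0.261% lower under BMT + T cells. The median of the members was -0.06 beside -0.01 for all genes; 31 members were below 0 in all 5 clusters and 11 above. The largest differences were 0.37 for Atp5l, 0.36 for Cox7c and -0.27 for Sdhd. Over the same clusters the summed immune markers Ptprc, Cd74 and H2-Aa were at 0.213 to 0.798 CP10K under BMT and 0.555 to 2.35 under BMT + T cells, with Ptprc at 0 to 0.00139; their part in the difference was not tested.

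The host CD11b+MHCII+ library showed the widest range of subunit transcripts. The 78 members listed in all 3 tables took 1.75% of UMIs in host cluster 2. Cd207 was at 14 CP10K there and at 1.56, 2.83 and 6.84 in clusters 1, 3 and 4. H2-Aa, an MHC class II chain, was at 57.1 against 16.65, 24.4 and 38.8. Epcam, Mfge8 and Cd74 were likewise higher in cluster 2. The Langerhans marker H2-M5 was at 2.25 in cluster 2 and at 5.20, 5.56 and 0.775 in clusters 1, 3 and 4. Ptprc was lower in cluster 2, at 2.425 against 7.67, 6.36 and 3.03. Cluster 4 held Ccl22, a marker of migrating cells, at 12.7 CP10K. Of the 7 clusters, cluster 2 had the lowest depth, a median of 1763.5 UMIs per cell, beside 3919.5 to 5007.5 in clusters 1, 3 and 4. Keratinocyte markers were also higher there than in clusters 1, 3 and 4: Krt10 was at 14.5 CP10K against 0.0828, 0.103 and 0.300, Krt5 at 8.48 against 1.45, 0.853 and 0.819, and Krt14 at 14.7 against 4.44, 1.81 and 2.75. The part of keratinocyte RNA in the member values of cluster 2 was not tested. The members took 0.167% of UMIs in cluster 1, 0.364% in cluster 3, 0.641% in cluster 4 and 0.219% in cluster 7. Cluster 5, with the keratin Krt5 at 130 CP10K, had 2.29%, and cluster 6, with the T cell gene Cd3e at 41 CP10K, had 1.74%. Cluster 7 held Krt5 at 18.9, Krt14 at 25.5 and Mki67 at 8.59 CP10K, with Ptprc, the gene of CD45, at 0.491 and Cd207 at 0.306. H2-Aa was at 2.74, 0.349 and 1.02 CP10K in clusters 5, 6 and 7, so these 3 clusters do not match the sorted CD11b+MHCII+ phenotype. Clusters 1 to 7 held 276, 170, 161, 90, 43, 23 and 18 cells.

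Nearly every member followed this pattern in clusters 1, 3 and 4. In cluster 1, 76 of 77 measured members were below cluster 2, with a median log2 difference of -2.82 where the median over 11224 genes was 0.53. In cluster 3 it was 75 members and -2.08, and in cluster 4 74 and -1.33. Beside Ndufs1, described below, Ndufa9 was above cluster 2 in clusters 3 and 4, at 0.245 and 0.311 against 0.0924 CP10K. It had 7 and 18 UMIs there and 25 in cluster 2. Ndufa11 was above cluster 2 in cluster 4, at 1.01 against 0.8325 CP10K. Cluster 7, with the keratinocyte markers named above, had 73 members below cluster 2 and a median of -2.84. Ribosomal protein transcripts moved with the members, at 11.5% of UMIs in cluster 2 and 0.633% in cluster 1, and the 13 mitochondrially encoded genes did not, at 4.12% and 5.85%. The authors' mitochondrial percentage moved the opposite way to the members, with medians over cells of 15.6, 16.9, 12.9 and 23.9% in clusters 1, 3, 4 and 7 and of 6.09, 2.91 and 4.79% in clusters 2, 5 and 6. The TCA enzymes in cluster 1 had a median of -0.40. The part of RNA quality in these differences was not tested.

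Ndufs1, the largest core subunit of complex I, whose gene overlaps the noncoding Ino80dos, went the other way in each of clusters 1, 3, 4 and 7. On pooled UMIs it was at 1.04 CP10K (95% Poisson interval 0.861 to 1.25) in cluster 1, 0.899 in cluster 3 and 0.788 in cluster 7, and at 0.482 (0.341 to 0.661) in cluster 2. The intervals of clusters 1 and 2 do not overlap. They cover counting error only, and this is 1 library. The host table was normalized apart from the donor table, so levels are not compared between them.

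**Figure D5:**
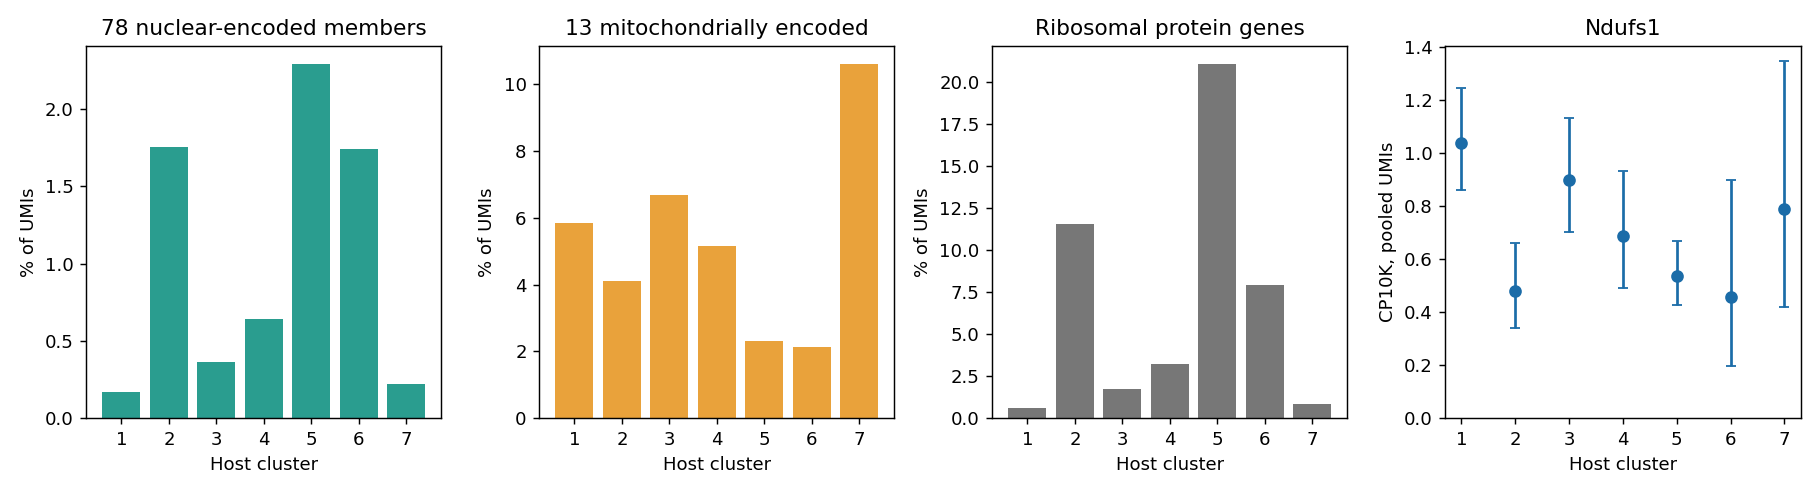
Share of UMIs (vertical axes, in percent) of the 78 members listed in all 3 tables, of the 13 mitochondrially encoded genes and of ribosomal protein genes in host clusters 1 to 7 (horizontal axes), and CP10K of Ndufs1 from pooled UMIs with 95% Poisson intervals; 1 library. Clusters 1, 3, 4 and 7 are low in members and in ribosomal protein transcripts, at 0.167% to 0.641% for the members, and not in mitochondrially encoded ones.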

How the data were processed

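Droplet 5′ libraries were sequenced from sorted epidermal cells. The deposited values are natural logs (ln), taken after scaling each cell to 10000 UMIs and adding 1. Per the labels' processing notes, the authors used kallisto, bustools, Seurat and the build GRCm38; the deposited mitochondrial column is in percent. The authors removed poor cells and doublets and assigned the clusters. The log was undone, which gave whole UMI counts for 100% of values within 0.001. CP10K was averaged over the cells of each library and cluster with at least 20 cells and tested with limma 3.58.1 (R 4.3.3, trend and robust variance, statmod 1.5.0) after tests on simulated data. Sums, keratinocyte and host values were computed with Python 3.11.15, NumPy 2.4.6, SciPy 1.17.1 and pandas 2.3.3, and plotted with matplotlib 3.10.9.

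The members, the lists and the rule for named members (up to 5 per direction of a comparison, by size among those called and changed alike in every library) were chosen with earlier results of these data known. The isoforms, Ndufb4, Ndufs1 and genes beside the named ones were chosen after their values were seen. Other settings were another pseudocount, filter, scaling, minimum of cells, pooled UMIs, voom, leaving out ribosomal UMIs or a library, and a fit on 2 clusters. The donor table lists a median of 90.57 to 93.3% of a cell's UMIs, so its members are measured against nearly the whole cell.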

Additional observations from a re-analysis of the deposited data

Results flagged for a closer look

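The median difference of the members between the labels BMT + T cells and BMT went opposite ways in the 2 kinds of cells. That of all genes did so too, at -0.014 in keratinocytes and 0.053 in donor cells. In keratinocytes the median of the members was -0.065 on the log2 scale and below 0 in each of the 5 clusters (-0.029 to -0.090). In donor cells it was 0.11, 0.03 and 0.11 against BMT 1, 2 and 3. Cox7c, a complex IV subunit with near-identical copies in the genome, did the reverse: its mean over the keratinocyte clusters was 0.36 and above 0 in each, while in donor cells it was -0.52, -1.33 and -0.62 against BMT 1, 2 and 3. In both cases the difference between keratinocytes and donor cells was not tested, and each keratinocyte label is 1 library.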

How the results depend on the processing

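Counts of members called between donor clusters moved with the setting, and under the study's limit of 2 on the log2 scale they were 0 in all 6 comparisons. For resident mLC against Mono the count was 10, with 17 on pooled UMIs, 26 with voom, 16 at 50 cells or more and 3 to 14 when 1 library was left out. Against Mrc1+ macrophages it was 22, with 9 under median-ratio scaling, 14 at 50 cells, 7 with 2 clusters in the fit, 12 without the Mrc1+ macrophages of BMT 3 and 8 to 19 without 1 library. Against MC it was 4, with 11 pooled, 24 with voom, 19 with 2 clusters and 1 to 8 without 1 library. The median of -0.07 became -0.21 under median-ratio scaling. Within single libraries it was -0.26, -0.13 and -0.09 in BMT 1, BMT 2 and BMT + T cells. For cycling mLC it was 3, with 6 pooled, 8 with voom and 1 to 4 without 1 library. The median of -0.10 turned to 0.18 at 50 cells, which leaves the cycling mLC of BMT 2 only. Within single libraries this median already differed in direction, at 0.006 in BMT 1, 0.13 in BMT 2 and -0.25 in BMT + T cells. For migrating mLC it was 7, with 1 under median-ratio scaling, where the median of -0.24 turned to 0.062, 25 pooled, 32 with voom, 14 at 50 cells, 15 with 2 clusters and 0 to 7 without 1 library. This median was -0.16 with pseudocount 1, -0.27 without ribosomal UMIs, -0.16 at 50 cells, -0.13 with 2 clusters and -0.31 to -0.15 without 1 library. For Hmox1+ monocytes it was 12, with 3 under median-ratio scaling (median -0.11), 21 pooled, 7 with voom (median -0.13), 0 with 2 clusters and 1 to 15 without 1 library. Between donor labels it was 0 to 5 without 1 library, and the median of 0.11 became 0.039 under median-ratio scaling and 0.020 with all cells of a library pooled.

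In keratinocytes, median-ratio scaling turned the median of differentiated cells to 0.019 and that of hair follicle cells to -0.037; the latter was 0.0030 without ribosomal UMIs and 0.029 pooled. KC_Four moved to 0.20 and 0.063 (median-ratio scaling, no ribosomal UMIs), and KC_Five to 0.15 with pseudocount 1, 0.24 under median-ratio scaling, 0.17 without ribosomal UMIs and 0.19 pooled. The difference between labels was -0.054 with pseudocount 1, -0.054 under median-ratio scaling and -0.041 without ribosomal UMIs. The cause of these moves was not tested, except where fewer libraries or clusters entered. Among values of single named members under other settings, 289 kept their side of the threshold, 87 lost the call and 0 changed sign. Cluster comparisons were paired by library, as a block in the fit. Between labels no paired analysis was possible: no label names pairs, and BMT + T cells is 1 library for donor cells and 1 for keratinocytes. Small clusters limit the donor comparisons (24 Hmox1+ monocytes in BMT 1, 30 MC and 34 cycling mLC in BMT + T cells), and keratinocyte and host values have no replicate.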
